A study of Rattus norvegicus with 25 samples.

Results

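Probe set b6955 is a group of 165 oligonucleotide probes on the HuGChip, a microarray whose probes read the bacterial 16S rRNA gene, here used on faecal DNA of rats. The members are all probes whose name begins with b6955_, that is 165 of the 4441 probes with 3 spots on each of 13 arrays. The number after the set names a probe group, of which there are 5 (b6955_1 to b6955_5), and the last number names a variant within it. The files pair no taxon with the set, so it is called by its number. The 25 samples fall into 4 groups of rats fed for 12 weeks. The rats were Wistar, a common outbred laboratory strain. The PO group (6 samples) received an iso-energetic control oil and the LO group (6) received linseed oil. Aleurone was added to the control oil diet in A+PO (6) and to the linseed diet in A+LO (7). Wheat aleurone is the layer of the grain next to the starchy endosperm, and linseed oil is rich in alpha-linolenic acid.

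The 16S rRNA gene encodes the RNA of the small ribosomal subunit of bacteria. It holds stretches that are almost the same in all bacteria beside stretches that differ between lineages, and a community array reads both kinds by hybridising labelled PCR product to short probes. Families of bacteria differ at single bases within a stretch, so such arrays carry several variants of 1 probe. A short probe binds a fully matched strand more tightly than one with mismatches, and mismatches near the middle usually weaken binding more than those at the ends. A signal on one variant can therefore come from its own target or from a related strand, and a variant with signal is no proof that a bacterium with exactly that sequence was present.

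The probes of 25 bases below are shown, 5′ to 3′ as the array design in the deposited files gives them, because the results turn on them or because they show how the variants of a probe group differ. The first variant of each probe group is in lower case, and capitals in the others mark the bases that differ from it.
b6955_1_1: ggccagactgccgttgacaaaacgg
b6955_1_32: ATcGagactgccgttgacaaaacgg
b6955_1_38: ggccaAactgccgttgacaaaacgg
b6955_1_42: AAAcagacCgccgttgacaaaacgg
b6955_1_13: AATGGgacCgcTACCgacaaGGTgg
b6955_1_31: TAGGaAactgccAGCgaTaaCCTgT
b6955_2_1: tggcctcgcgtctgattagctagtt
b6955_2_42: tggGctcgcgtctgattagctTgtt
b6955_3_1: gggatgacgtcaaatcatcatgccc
b6955_3_39: gggatgaTgtcaaatcatcatgccc
b6955_4_1: tcgtgtcgtgagatgttgggttaag
b6955_4_2: tcgtgtcgtgagatgttgggttGag
b6955_4_3: tcgtgtAgtgagatgttgggttaag
b6955_4_4: tcgtgtcgtgagatgttgggttaaA
b6955_4_5: tTgtgtcgtgagatgttgggttaag
b6955_5_1: taaacgatgattactaggtgttgga
b6955_5_8: taaacgatgatCactaggtgtGggG
b6955_5_10: taaacgatgatAGctaggtgtGggG
b6955_5_21: taaacgatgaAtGctaggtgtGggG
b6955_5_5: taaacgatCaAtactaggtgtGCgG
b6955_5_15: taaacgatgaAtTctaggtgtAggG
b6955_5_17: taaacgatgaAtGctaggtgtAggG
b6955_5_23: tGGCcgatgTttactaggtgttgga

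Within probe group b6955_3, 32 variants (b6955_3_7 to b6955_3_38) form a complete combinatorial block: 5 positions take 1 of 2 bases each, and every combination is on the array once. Counted from 1 at the 5′ end of b6955_3_7, the changes are C5T, A7C, C8T, A13G and G22C. Members of that block that the results name are shown here with capitals for the bases that differ from b6955_3_7.
b6955_3_7: gaaacgacgtcaaatcatcatgccc
b6955_3_10: gaaacgacgtcaGatcatcatCccc
b6955_3_12: gaaacgaTgtcaaatcatcatCccc
b6955_3_13: gaaacgaTgtcaGatcatcatgccc
b6955_3_14: gaaacgaTgtcaGatcatcatCccc
b6955_3_17: gaaacgCcgtcaGatcatcatgccc
b6955_3_18: gaaacgCcgtcaGatcatcatCccc
b6955_3_37: gaaaTgCTgtcaGatcatcatgccc
b6955_3_38: gaaaTgCTgtcaGatcatcatCccc

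A probe was counted as detected in a sample where over 0.5 of its spots were well above background by the scanner software's own test. Levels are log2 intensities after background correction, minus the sample's 75th percentile over the 405 probes detected in all samples, so a level of 0 is that percentile. Members make up 73 of those 405 probes, or 18.0%, beside 3.72% of all probes. Between 10 and 38 members per sample lay at or above it, so the scale is partly set by the members themselves. The percentile was 13.22 in the A+LO sample hybridised with LO 4 and 16.89 to 18.94 in the other A+LO samples, beside 17.37 to 19.54 in the remaining groups. The A+LO sample hybridised with LO 4 also had the fewest detected probes (576 of 4441), and PO 1 stood apart with a median raw intensity of 513, beside 58.9 to 174 in the other 24 samples. All aleurone samples were labelled with Cy5 and all others with Cy3, and the control-oil arrays lie on 1 slide and the linseed arrays on another. Thus dye cannot be told apart from aleurone, nor slide from oil.

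Most members gave a signal in these samples, and the 5 probe groups differed widely in how many of their variants did. Over 165 probes and 25 samples, 2627 of 4125 probe readings were detected (63.7%), beside 20.8% for the 4276 probes of other sets. By member, 73 were detected in all 25 samples, 69 in some and 23 in none. Of the members, 69 (41.8%) had a median raw intensity over 100000 units, beside 5.68% of the other probes, so the description of the set as bright holds for some of its probe groups only: 43 of these members lie in b6955_1, 19 in b6955_3, 5 in b6955_4, 2 in b6955_5 and 0 in b6955_2. No spot was saturated in the 25 channels used.

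Probe group b6955_1 was detected almost throughout. Of its 45 variants, 35 were detected in all 25 samples and 44 in 23 or more, so that 1 variant stood apart. That variant was b6955_1_31, detected in 1 sample, with a median raw intensity of 84.4 over all samples. It differs from b6955_1_1 at 13 positions. Number of changes alone did not go with loss of signal, since b6955_1_13 and b6955_1_21 also differ from b6955_1_1 at 13 positions and were detected in 25 of 25 samples each. The last 13 bases of b6955_1_1 (gttgacaaaacgg) end 36 of the 45 variants, each with its own first 12 bases. Those 36 variants were detected in at least 24 of 25 samples, and 29 of them in all. In 4 pairs of variants that differ at 1 base, the base lies within this stretch: in 3 of them both variants were detected in all 25 samples, and in the other b6955_1_36 was detected in 23 samples beside 24 for b6955_1_1.

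Probe group b6955_2 was the reverse. None of its 48 variants was detected in all samples, 18 were detected in none, and 73 of 1200 readings were detected (6.08%). The variant detected most often was b6955_2_42, in 7 samples. The readings that were detected lay largely on 1 array: PO 1 had 20 detected variants and A+PO 1, hybridised with it, had 22, beside 0 to 7 in the other 23 samples. PO 1 is also the sample with the high median raw intensity given above, whose part in these detections was not tested.

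Probe group b6955_4, the smallest with 5 variants, was detected in every sample for every variant. The variants share 21 of 25 positions, and b6955_4_2 to b6955_4_5 each differ from b6955_4_1 at 1 base. The median raw intensities of the variants ran from 473553 to 529919. Probe group b6955_5 was detected in 86.1% of readings, with 20 of 28 variants detected in 23 or more samples. The exceptions at the low end were b6955_5_23 (0 samples), b6955_5_15 (3), b6955_5_5 (12), b6955_5_26 (15) and b6955_5_25 (17), named after their values were seen.

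The combinatorial block of b6955_3 showed how detection changed with each base. The unchanged probe b6955_3_7 was detected in all 25 samples, and b6955_3_38, which carries all 5 changes, in none. With 1 change 98.4% of readings were detected, with 2 changes 97.2%, with 3 changes 55.2% and with 4 changes 25.6%. The changes did not weigh alike. Of the 400 readings on the 16 probes that carry each change, 51.2% were detected with C8T against 89% on the 16 probes without it, 51.5% against 88.8% for A13G, and 54.5% against 85.8% for G22C. For C5T the shares were 62% and 78.2%, and for A7C 68.5% and 71.8%.

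Each change can be set against its own absence in 16 pairs of probes that are otherwise identical. The probe with A13G was detected in fewer samples in 14 pairs and in as many in 2. For C8T the counts were 12 pairs with fewer and 4 with as many, for G22C 10 and 6, and in no pair of these 3 changes was the changed probe detected more often. C5T gave 7 pairs with fewer, 7 with as many and 2 with more, and A7C gave 4, 8 and 4. Counted by C8T, A13G and G22C alone, a grouping made after these values were seen, the 4 probes with none of them were detected in all 100 readings. The 12 probes with 1 of them were detected in 293 of 300, the 12 with 2 in 168 of 300 (56%), and the 4 with all 3 in 0 of 100. Probes of a block share their target and are not replicates, so these shares are a description without a test.

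Detection is given by diet group next, without a test for single probe groups. On the 12 probes with 2 of the 3 changes, the share of detected readings was 73.6% with A+PO, 68.1% with PO, 51.4% with LO and 34.5% with A+LO. Over all 165 members the shares were 66.4% (PO), 62.5% (LO), 67.4% (A+PO) and 59.2% (A+LO). For b6955_3 as a whole they were 79.9% (PO), 73.1% (LO), 81.6% (A+PO) and 68.5% (A+LO), a narrower spread than on those 12 probes. The 12 probes were grouped after their detection was seen. The other classes of the block were detected in 100%, 97.7% and 0% of readings, which leaves little room for a spread. The 12 probes are thus the class with the most room to vary, and the source of their spread was not tested. The shares were 97.8% (PO), 97.0% (LO), 98.1% (A+PO) and 94.9% (A+LO) for b6955_1. For b6955_2 they were 10.1% (PO), 3.47% (LO), 10.4% (A+PO) and 1.19% (A+LO). For b6955_5 they were 87.5% (PO), 86.9% (LO), 89.9% (A+PO) and 81.1% (A+LO), and for b6955_4 every reading was detected.

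Over the whole set, 254 pairs of members differ at exactly 1 base, and 151 of the 165 members belong to at least 1 pair. In 111 pairs both probes were detected in the same number of samples, in 99 the numbers differed by 1 to 5, and in 44 by more than 5. Of the 44 pairs, 38 lie in b6955_3, 5 in b6955_5 and 1 in b6955_2. The 3 widest gaps all led to b6955_3_14, which was detected in no sample. It differs from b6955_3_12 (25 samples) by A13G, from b6955_3_10 (23 samples) by C8T and from b6955_3_13 (23 samples) by G22C. In b6955_1 no pair differed by more than 1 sample, over 58 pairs. In b6955_5 the widest gap was between b6955_5_15 (3 samples) and b6955_5_17 (25 samples), which differ by T13G, and b6955_5_5 (12) differs from b6955_5_4 (25) by G9C.

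None of the 165 member sequences occurs in another set. The stretch a variant shares without a break with a probe of another set was longest in b6955_1, with a median of 19 bases and up to 24, and 12 of its variants share 20 bases or more with probes of 1 of the 65 other sets. The longest shared stretch was 16 bases in b6955_2, 14 in b6955_5 and 11 in b6955_3 and in b6955_4. The number of G and C bases ran from 9 to 16 of 25 over the set, with medians of 14 in b6955_1, 13 in b6955_2, 12 in b6955_3, and 11 in b6955_4 and b6955_5. By this median the rarely detected b6955_2 lies between b6955_1, with 96.9% of readings detected, and b6955_3, with 75.5%. The part of base composition in detection was not tested.

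The number of detected members was compared between the diet groups next. It was 109.5 ± 10.2 (SD, n = 6) for PO, 103 ± 8.28 (SD, n = 6) for LO, 111 ± 11.9 (SD, n = 6) for A+PO and 97.7 ± 9.86 (SD, n = 7) for A+LO. The lowest, median and highest counts were 97, 108 and 126 for PO, 87, 106 and 109 for LO, 100, 108 and 133 for A+PO, and 76, 101 and 104 for A+LO. The groups overlapped, with the lowest count in the A+LO sample hybridised with LO 4 and the highest in A+PO 1. Counts in brackets below are of samples on that side of the other group's mean or, within arrays, of arrays. With aleurone in both diets, A+LO differed from A+PO by -13.5 (lower in 7 of 7, exact two-sided permutation p = 0.0227, 0.0521 adjusted over the 5 comparisons). Within the arrays of the linseed groups A+LO differed from LO by -6 (lower in 6 of 6, exact two-sided permutation p = 0.0312, 0.0521 adjusted over the 5 comparisons), where 6 arrays cannot give a p below 0.0312. Neither passed after adjustment, though the first did without A+PO 4 or A+PO 5 (adjusted exact permutation p = 0.0379 and 0.0126).

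LO differed from PO by -6.33 (lower in 6 of 6, exact two-sided permutation p = 0.299, 0.373 adjusted over the 5 comparisons), and A+PO from PO by 1.67 (higher in 4 of 6, exact two-sided permutation p = 0.375, 0.375 adjusted over the 5 comparisons). The aleurone difference was lower with linseed oil than with control oil with an interaction of -7.67 (lower in 6 of 6, exact two-sided permutation p = 0.00433, 0.0216 adjusted over the 5 comparisons), and this passed. The share of detected probes outside the set had means of 23.5% (PO), 19.8% (LO), 23.2% (A+PO) and 17.3% (A+LO), which were also lower with linseed oil, so that direction is not one of the members alone. The aleurone difference of these means was also lower with linseed oil (19.8% to 17.3%) than with control oil (23.5% to 23.2%). The members' interaction thus has the same direction outside the set, where it was not tested. The median raw intensity of all probes, a measure of the background level, also moved with the groups. It was 171 ± 168 (SD, n = 6) for PO, 122 ± 33.7 (SD, n = 6) for LO, 98.4 ± 35.2 (SD, n = 6) for A+PO and 63.3 ± 3.72 (SD, n = 7) for A+LO, and its part in the detected counts was not tested. With a limit of 3 background SD in place of the scanner software's test, the difference between A+PO and PO was -37.7 members and the interaction no longer passed (adjusted exact permutation p = 0.0785).

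Set b6955 gave a large part of the signal of each array. Its share of the summed background-corrected intensity was 19.5% ± 3.43 (SD, n = 6) for PO, 19.4% ± 2.13 (SD, n = 6) for LO, 22.7% ± 3.43 (SD, n = 6) for A+PO and 28.3% ± 4.28 (SD, n = 7) for A+LO. In percent, the lowest, median and highest shares were 14.5, 19.1 and 24.5 for PO, 15.5, 19.9 and 21.5 for LO, 16.8, 22.7 and 26.8 for A+PO, and 23.6, 26.4 and 36.2 for A+LO. The share was higher with aleurone on each of the 12 arrays that carry both dyes. It differed by 3.19 percentage points (higher in 6 of 6, exact two-sided permutation p = 0.0312, 0.0391 adjusted over the 5 comparisons) between A+PO and PO, and by 8.98 percentage points (higher in 6 of 6, exact two-sided permutation p = 0.0312, 0.0391 adjusted over the 5 comparisons) between A+LO and LO. With 6 arrays the smallest p that the within-array test can give is 0.0312, and with 1 array left out it is 0.0625.

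A+LO had a larger share than A+PO by 5.61 percentage points (higher in 7 of 7, exact two-sided permutation p = 0.0152, 0.0379 adjusted over the 5 comparisons), while LO and PO differed by -0.0844 percentage points (lower in 2 of 6, exact two-sided permutation p = 0.955, 0.955 adjusted over the 5 comparisons). The interaction was 5.78 percentage points (higher in 6 of 6, exact two-sided permutation p = 0.00866, 0.0379 adjusted over the 5 comparisons). With 1 sample left out these 2 differences ran from 4.28 to 6.44 (adjusted exact permutation p up to 0.0781) and from 4.49 to 6.79 (up to 0.0781), so neither call held throughout. By probe group, the mean shares of b6955_1 were 11.2% (PO), 10.0% (LO), 13.2% (A+PO) and 14.2% (A+LO). For b6955_3 they were 5.17% (PO), 5.80% (LO), 6.75% (A+PO) and 9.83% (A+LO), and for b6955_4 1.34% (PO), 1.64% (LO), 2.05% (A+PO) and 3.84% (A+LO). The mean shares of b6955_5 were 1.74% (PO), 1.88% (LO), 0.626% (A+PO) and 0.422% (A+LO), lower with aleurone under either oil, while the means of the 3 others named were higher. Those of the rarely detected b6955_2 were also lower, at 0.0237% (PO), 0.0238% (LO), 0.00582% (A+PO) and 0.0192% (A+LO). Its median share was higher with aleurone under linseed oil, at 0.00328% (LO) and 0.00405% (A+LO). The 243 probes of other sets with a median raw intensity over 100000 had mean shares of 56.9% (PO), 57.2% (LO), 62.8% (A+PO) and 61.5% (A+LO), so bright probes outside the set also took a larger mean share in the Cy5 channels.

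The levels of single members were compared by limma over the 1153 probes detected in at least 6 samples. Of the 165 members, 110 are among them: 44 of b6955_1, 3 of b6955_2, 32 of b6955_3, 5 of b6955_4 and 26 of b6955_5. The 55 others comprise 23 probes detected nowhere and 32 detected in 1 to 5 samples. Counts given as "in that direction" are, within arrays, the arrays whose difference has the sign of the fitted one, and between oils the samples on that side of the other group's mean. The mean level of the kept members was -1.99 ± 0.68 (SD, n = 6) for PO, -2.97 ± 1.39 (SD, n = 6) for LO, -2.98 ± 0.96 (SD, n = 6) for A+PO and -3.00 ± 0.41 (SD, n = 7) for A+LO on the log2 scale, with lowest, median and highest values of -3.21, -1.97 and -1.22 for PO, -5.53, -2.71 and -1.66 for LO, -4.84, -2.62 and -2.24 for A+PO, and -3.73, -2.90 and -2.52 for A+LO.

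Linseed oil without aleurone was compared first, LO against PO. No member passed the test, as was the case for the other probes (0% of 1153 called in limma with Benjamini-Hochberg adjustment). At an unadjusted p under 0.05 there were 0 members and 26 of all probes. The median member differed by -1.01 and the median of all probes by -1.10 on the log2 scale, so the members lay near the array's own shift. Of the members, 97 had a difference below 0 and 13 above. The set as a whole differed by -1.003 (SE 0.829, limma Benjamini-Hochberg adjusted p = 0.501, 5 of 6 in that direction). Among the probe groups b6955_1 was lowest, at -1.27 (SE 0.960, limma Benjamini-Hochberg adjusted p = 0.663, 3 of 6 in that direction), and b6955_4 highest, at -0.017 (SE 0.918, limma Benjamini-Hochberg adjusted p = 0.991, 1 of 6 in that direction).

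The member with the smallest p on the lower side was b6955_1_38, whose log2 level had lowest, median and highest values of -2.93, 0.11 and 0.43 for PO, and -7.24, -2.62 and -0.026 for LO. The LO samples thus ran from the level of the PO samples to far below it, and the difference of -2.60 (SE 1.33, limma Benjamini-Hochberg adjusted p = 0.756, 3 of 6 in that direction) did not pass. On the higher side the smallest p belonged to b6955_1_32, at -2.21, -0.048 and 0.13 for PO, and -0.0012, 0.028 and 0.49 for LO. Its groups overlapped, and the difference was 0.64 (SE 1.32, limma Benjamini-Hochberg adjusted p = 0.855, 6 of 6 in that direction). The group means of b6955_4 were -0.069 in PO and 0.030 in LO, a difference of the other sign from the fitted one. The fit weighs samples through their array partner, and either value is far inside its error.

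With aleurone in both diets, A+LO against A+PO, no member passed either (0% of all probes called in limma). At an unadjusted p under 0.05 there were 2 members and 87 of all probes. The median member differed by 0.0094 and the median of all probes by 0.68. The set differed by -0.022 (SE 0.813, limma Benjamini-Hochberg adjusted p = 0.993, 3 of 7 in that direction), and its sign turned under other scalings. Of the probe groups, b6955_2 was highest, at 2.05 (SE 1.17, limma Benjamini-Hochberg adjusted p = 0.400, 6 of 7 in that direction), and b6955_1 lowest, at -0.73 (SE 0.944, limma Benjamini-Hochberg adjusted p = 0.653, 3 of 7 in that direction). Only 3 variants of b6955_2 are in that value, all near background. The members with the smallest p were b6955_5_5, with lowest, median and highest log2 levels of -12.65, -12.17 and -9.91 for A+PO, and -11.35, -10.52 and -6.33 for A+LO and a difference of 2.47 (SE 1.15, limma Benjamini-Hochberg adjusted p = 0.567, 7 of 7 in that direction). On the lower side it was b6955_1_42, at -3.75, -0.14 and 0.048 for A+PO, and -10.12, -2.01 and -0.51 for A+LO, with a difference of -2.98 (SE 1.27, limma Benjamini-Hochberg adjusted p = 0.567, 5 of 7 in that direction). Both pairs of groups overlapped. b6955_5_5 was detected in 3 of 6 A+PO and 2 of 7 A+LO samples, with a median raw intensity of 111 over all samples, so its levels in these samples are near or below background.

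The aleurone comparison with control oil, A+PO against PO, gave the most calls. Of the 110 kept members, 42 were lower in A+PO and 0 higher. That is 38.2% of the members, beside 66.1% of all 1153 probes called lower and 0% called higher by limma with Benjamini-Hochberg adjustment. The median member differed by -0.65 and the median of all probes by -1.98, so the median member stood above the median probe of the array. By probe group, 26 of 26 kept variants of b6955_5 were called lower, 12 of 32 of b6955_3, 3 of 3 of b6955_2, 1 of 44 of b6955_1 and 0 of 5 of b6955_4. Those of b6955_2 are near background.

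The split followed brightness. Of the members with a median raw intensity at or under 100000, 40 of 41 were called lower, and of those over it 2 of 69. Probes of other sets divided in the same way, with 86.4% of 800 dim probes and 11.9% of 243 bright probes called lower. Dye and aleurone go together across samples, so their parts in this split cannot be told apart. As probe groups, b6955_5 was lowest, at -2.11 (SE 0.580, limma Benjamini-Hochberg adjusted p = 0.00265, 6 of 6 in that direction), and b6955_2 was at -1.70 (SE 0.608, limma Benjamini-Hochberg adjusted p = 0.0121, 6 of 6 in that direction). The difference was -0.98 (SE 0.484, limma Benjamini-Hochberg adjusted p = 0.0572, 6 of 6 in that direction) for b6955_3 and -0.42 (SE 0.491, limma Benjamini-Hochberg adjusted p = 0.418, 6 of 6 in that direction) for b6955_1. Probe group b6955_4 was highest, at 0.21 (SE 0.470, limma Benjamini-Hochberg adjusted p = 0.671, 6 of 6 in that direction). The set as a whole differed by -0.99 (SE 0.468, limma Benjamini-Hochberg adjusted p = 0.0440, 6 of 6 in that direction), a call that was lost on leaving out any 1 of these samples but A+PO 2 (adjusted p from 0.0473 to 0.148). Without PO 1, 1 probe group was called in place of 2. Of the 195 probe groups tested 85.6% were called lower, and of the 53 sets 92.5%.

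The member with the largest drop was b6955_5_10. Its raw intensity had lowest, median and highest values of 2278, 18935 and 60631 for PO, and 488, 6074 and 19607 for A+PO, and its log2 level of -7.24, -3.76 and -1.58 for PO, and -9.58, -6.95 and -4.93 for A+PO. The groups overlapped across arrays, but the A+PO sample was the lower one on each of the 6 arrays, and the difference was -3.05 (SE 0.798, limma Benjamini-Hochberg adjusted p = 0.00258, 6 of 6 in that direction). Next came b6955_5_8, with log2 levels of -10.14, -6.84 and -3.60 for PO, and -11.68, -9.74 and -6.08 for A+PO. Its difference was -2.72 (SE 0.694, limma Benjamini-Hochberg adjusted p = 0.00217, 6 of 6 in that direction). No member rose. The smallest p on that side was that of b6955_4_3, at -0.85, -0.023 and 0.21 for PO, and -0.015, 0.074 and 0.43 for A+PO, with a difference of 0.28 (SE 0.442, limma Benjamini-Hochberg adjusted p = 0.618, 5 of 6 in that direction).

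The size and sign of these differences rest on the scaling. The set's difference between A+PO and PO was 0.42 when each sample was scaled to the median of all probes, 1.86 with the median of the kept probes (limma adjusted p = 0.00140) and -0.050 after loess within arrays. Loess left 8 members called, and the median of all probes gave 16 higher and 6 lower. With the median of the kept probes the calls were 61 higher and 0 lower, with quantiles within each dye 7 higher and 46 lower, and with no array block 0 higher and 0 lower. Probe group b6955_4 was called higher with loess (0.59), the median of all probes (1.62), that of the kept probes (3.06) and quantiles within each dye (0.95). Probe group b6955_5 did not pass with the median of all probes (-0.71), and b6955_5_10 did not with loess or the median of the kept probes. The order of the probe groups is less exposed, since a scaling by 1 value per sample shifts them alike. The level of b6955_4 minus that of b6955_5 was 3.38 ± 1.33 (SD, n = 6) for PO, 4.28 ± 2.40 (SD, n = 6) for LO, 5.71 ± 1.44 (SD, n = 6) for A+PO and 7.14 ± 1.34 (SD, n = 7) for A+LO. The fitted gap between their aleurone differences with control oil ran from 1.14 to 3.05 over 12 settings of signal, scaling, filter and block, the reported one among them. Scalings by 1 value per sample, changes of block and a fit of these groups alone all gave 2.32 by construction. The 12 settings are therefore not separate checks. With linseed oil the gap ran from 2.38 to 4.13, where the upper end is that of the replicate block, whose linseed numbers pair nothing. The other settings reached at most 3.45. Thus b6955_5 stood lower relative to b6955_4 in the Cy5 samples, which are the aleurone samples, with either oil. The pair was picked from these values, as the lowest and highest probe groups in both aleurone comparisons. Their probes also differ in brightness, with median raw intensities of 30270 (b6955_5) and 487457 (b6955_4). In other sets, probes at or under 100000 had a median difference of -2.21 with control oil, and brighter ones -0.44. With linseed oil these medians were -0.23 and -0.35. The part of brightness in the gap was not tested.

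In A+LO against LO, the aleurone comparison with linseed oil, calls went both ways, in a split that rests on the scaling. Of the 110 kept members, 7 were higher (6.36%) and 8 lower (7.27%) in A+LO, beside 0.867% of all probes called higher and 4.08% called lower (4.94% in all) by limma with Benjamini-Hochberg adjustment. Scaled to the median of all probes, 0 higher and 46 lower were called, with the median of the kept probes 48 higher and 0 lower, and with the 75th percentile over non-members 2 higher and 0 lower. Of the 10 probes called higher on the whole array, 7 are members. They are b6955_4_1, b6955_4_2, b6955_4_5, b6955_3_5, b6955_3_6, b6955_1_8 and b6955_1_13, all detected in all 25 samples, with median raw intensities from 464961 to 529919. Of the 8 called lower, 7 belong to b6955_5 and 1 is b6955_3_17. The median member differed by 0.14 and the median of all probes by -0.24.

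The largest rises were those of b6955_4_5 and b6955_4_1, which differ at 1 base. The log2 level of b6955_4_5 had lowest, median and highest values of -0.12, -0.070 and 0.30 for LO, and 0.22, 0.63 and 6.54 for A+LO. Its difference was 2.12 (SE 0.553, limma Benjamini-Hochberg adjusted p = 0.0367, 6 of 6 in that direction). For b6955_4_1 the values were -0.14, -0.086 and 0.43 for LO, and 0.35, 0.78 and 6.29 for A+LO, with a difference of 2.10 (SE 0.532, limma Benjamini-Hochberg adjusted p = 0.0297, 6 of 6 in that direction). The groups nearly separate on this scale, and 3 A+LO samples carry most of it. For b6955_4_1 they stood at 6.29 on the array of LO 4, 3.15 in A+LO 1 and 1.96 in A+LO 9, and the other 4 between 0.35 and 0.78.

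The same 3 samples had the lowest 75th percentiles, which is what their levels are measured from: 13.22, 16.89 and 17.31, beside 17.80 to 18.94 in the other 4. The raw intensity of b6955_4_1, before any scaling, was 758465, 1072591 and 638609 in these 3 and 377884 to 639519 in the other 4, beside 328254 to 593384 in LO. On the unscaled intensities the groups thus overlapped. Within arrays the raw intensity was higher in A+LO on every shared array but that of LO 6 (593384 in LO, 392053 in A+LO). The samples of an array also differ in dye. The other variants of b6955_4 differed by 2.05 (SE 0.555, limma Benjamini-Hochberg adjusted p = 0.0422, 6 of 6 in that direction) for b6955_4_2, 0.98 (SE 0.438, limma Benjamini-Hochberg adjusted p = 0.159, 5 of 6 in that direction) for b6955_4_3 and 0.72 (SE 0.479, limma Benjamini-Hochberg adjusted p = 0.323, 5 of 6 in that direction) for b6955_4_4. As a probe group b6955_4 was higher in A+LO by 1.59 (SE 0.466, limma Benjamini-Hochberg adjusted p = 0.0431, 6 of 6 in that direction), the highest of the 5. Leaving out any 1 sample but LO 4, the A+LO sample hybridised with it or A+LO 11 ended that call (values from 1.24 to 1.84). Of the 195 probe groups 0.513% were called higher and 3.59% lower (4.1% in all).

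On the lower side b6955_5_21 had log2 levels of -7.01, -1.90 and -0.25 for LO, and -6.44, -5.15 and -0.95 for A+LO (lowest, median and highest), with a difference of -2.26 (SE 0.565, limma Benjamini-Hochberg adjusted p = 0.0297, 5 of 6 in that direction). For b6955_3_17, which carries A7C and A13G, the values were -5.11, -2.76 and 0.25 for LO, and -6.33, -5.49 and 0.37 for A+LO, with a difference of -2.25 (SE 0.564, limma Benjamini-Hochberg adjusted p = 0.0297, 5 of 6 in that direction). For both, the A+LO samples overlapped those of LO, and 1 array went against the rest: that of LO 4 for b6955_5_21 and that of LO 3 for b6955_3_17. The probe group b6955_5 was lowest of the 5, at -1.23 (SE 0.575, limma Benjamini-Hochberg adjusted p = 0.235, 5 of 6 in that direction), and did not pass. Without LO 4 it was -2.01 and without its array partner -1.94, and then passed. The set as a whole differed by -0.0063 (SE 0.463, limma Benjamini-Hochberg adjusted p = 0.990, 4 of 6 in that direction). These calls rest on single samples. Leaving out 1 sample gave from 0 to 50 called members: 50 without LO 4, 48 without the A+LO sample on its array, and 0 without LO 6, LO 8, LO 9, LO 11, A+LO 9 or the A+LO sample hybridised with LO 6. No called member was left in a fit of the LO and A+LO samples alone.

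The interaction asks whether the aleurone difference depends on the oil, and a dye effect that is the same on both slides drops out of it. A dye effect that differs between the slides does not drop out, and it cannot be told apart from a dependence on the oil. The percentile used for scaling had log2 medians of 17.95 (PO), 19.15 (A+PO), 19.13 (LO) and 17.80 (A+LO). It was thus higher in Cy5 on the control-oil slide and lower in Cy5 on the linseed slide, and its part in the interaction was not tested. Of the kept members 10 passed, all with a higher aleurone difference under linseed oil, or 9.09% beside 28.2% of all probes in limma with Benjamini-Hochberg adjustment. Scaled to the median of all probes, 0 higher and 22 lower were called. Processed signals, loess, the median of the kept probes, quantiles within each dye, no array block and the replicate block each left 0. On the linseed side the replicate block holds only numbers 9 and 11, which pair nothing there, so its result is a weak check. The median member stood at 0.91 and the median of all probes at 1.51. The called members are b6955_2_42, b6955_2_43, b6955_2_48, b6955_3_18, b6955_3_20, b6955_3_21, b6955_3_28, b6955_3_34, b6955_3_37 and b6955_5_25. All are dim, with median raw intensities from 96.5 to 186, and none was detected in all samples. Of the 7 A+LO samples, b6955_2_42, b6955_2_43, b6955_2_48 and b6955_3_37 were detected in 0. The counts were 1 for b6955_3_21 and b6955_3_28, 2 for b6955_3_18 and b6955_3_20, and 4 for b6955_3_34. None of these was detected in more A+LO than LO samples. The level of an undetected probe is one of background relative to the percentile used for scaling. For these probes the calls thus do not show more signal in A+LO. The 6 from b6955_3 are intermediate probes of the combinatorial block, each with 3 or 4 changes.

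The highest was b6955_3_37. Its log2 level had lowest, median and highest values of -11.35, -9.39 and -7.26 for PO, -12.01, -11.58 and -7.44 for LO, -12.61, -11.79 and -10.24 for A+PO, and -11.54, -10.47 and -6.34 for A+LO. Its raw intensity in A+LO ran from 57.7 to 77.4, and it was detected in 0 of 7 A+LO samples, so its level there is one of background relative to the 75th percentile. The interaction was 3.38 (SE 0.812, limma Benjamini-Hochberg adjusted p = 0.0110, 6 of 6 in that direction). For b6955_3_18 it was 3.08 (SE 0.891, limma Benjamini-Hochberg adjusted p = 0.0153, 6 of 6 in that direction), with levels of -11.36, -7.49 and -5.19 for PO, -11.56, -10.77 and -7.43 for LO, -12.61, -9.92 and -7.85 for A+PO, and -11.49, -10.39 and -6.34 for A+LO, and it was detected in 2 of 7 A+LO samples. The smallest p below 0 was that of b6955_1_32, at -1.04 (SE 0.933, limma Benjamini-Hochberg adjusted p = 0.425, 4 of 6 in that direction).

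Among the probe groups b6955_2, read through 3 dim variants, was highest at 2.85 (SE 0.856, limma Benjamini-Hochberg adjusted p = 0.00774, 6 of 6 in that direction), beside 60.5% of the 195 probe groups called higher. None of these 3 variants was detected in an A+LO sample. The lowest was b6955_1, at 0.53 (SE 0.692, limma Benjamini-Hochberg adjusted p = 0.497, 5 of 6 in that direction). For b6955_4 the interaction was 1.38 (SE 0.661, limma Benjamini-Hochberg adjusted p = 0.0684, 6 of 6 in that direction) and for the set 0.98 (SE 0.659, limma Benjamini-Hochberg adjusted p = 0.165, 6 of 6 in that direction). Without PO 1, 0 members were called in the interaction, and without A+LO 1, 1. Without A+PO 4 there were 4, and without LO 8, LO 9 or the A+LO samples hybridised with LO 6, LO 8 and LO 9 there were 16 to 18.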

How the data were processed

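The deposited files are scanner tables of 13 two-colour arrays, which Agilent Feature Extraction wrote (version 10.5.1.1 per the file headers). The mean spot intensity and local background intensity were used as deposited, and the background-subtracted and processed intensities that the authors deposited served as alternatives. All log2 values were computed here from the deposited intensities. 1 channel without a listed sample was not used, so A+LO 11 stands alone on its array, and 4 A+LO samples, tied to their arrays by their descriptions while the file names give other numbers, are named by the LO sample hybridised with them.

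Both dyes were analysed as single channels: normexp with offset 50, log2, minus the 75th percentile over the 405 probes detected in all samples. Spots marked as outliers were left out unless all of a probe were. A probe group or set is the mean of its kept probes (sets with at least 3). Differences were fitted with limma 3.58.1 (R 4.3.3) over 1153 probes, 195 probe groups or 53 sets, with 4 group means, the array as a random block (correlation 0.760, 0.749 and 0.692) and Benjamini-Hochberg adjustment over the features of a comparison. The threshold was an adjusted p of 0.05. Counts of detected members and signal shares were compared by exact two-sided permutation over samples or, within arrays, by sign flips. Sequences come from the deposited files (Python 3.11.15).

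The labels do not say whether samples of a group come from separate animals, so p-values measure the spread between samples. PO and A+PO samples with the same number share an array, and their deviations correlated at 0.867 to 0.940; other numbers pair nothing. The number of arrays limits the precision. The members, lists and named probes were chosen with earlier results of these data known. Named in each comparison are the passing members with the 2 highest and 2 lowest differences, or else the one with the smallest p, the highest and lowest probe group, b6955_4, and the 3 pairs of members differing at 1 base with the widest gap in detection. Alternatives changed the signal, scaling, filter, block and samples.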

Additional observations from a re-analysis of the deposited data

Results flagged for a closer look

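In 84 combinations of a result and a diet group, the highest or lowest sample was compared with the rest of its group, and 22 samples lay further apart than Dixon's 95% limit. Chance alone does this in about 1 in 20 groups, and the probes and probe groups examined share samples, so these counts overlap. Values are given with the nearest other sample of the group in brackets. A+PO 5 stood apart with log2 levels of -4.84 for the set (-3.14), -3.31 for b6955_1 (-0.51) and -4.83 for b6955_1_38 (-0.41). LO 4 stood apart with 87 detected members (102), 0.42 for b6955_4 (0.026), -8.52 for b6955_5 (-4.27), 0.30 for b6955_4_5 (0.0093), 0.43 for b6955_4_1 (-0.00083) and -7.01 for b6955_5_21 (-2.29). The A+LO sample hybridised with LO 4 stood apart with 76 detected members (97) and -6.29 for b6955_1_32 (-0.19). PO 5 stood apart with log2 levels of -1.88 for b6955_1 (-0.19) and -2.93 for b6955_1_38 (-0.075). PO 1 stood apart with log2 levels of -5.04 for b6955_2 (-10.14) and -0.85 for b6955_4_3 (-0.17). A+PO 1 stood apart with log2 levels of -8.03 for b6955_2 (-11.23), -0.82 for b6955_1_32 (-0.0016) and -9.91 for b6955_5_5 (-11.69). A+LO 1 stood apart with log2 levels of -2.22 for b6955_5 (-5.60), -0.95 for b6955_5_21 (-4.84) and 0.37 for b6955_3_17 (-4.14). PO 2 stood apart with a log2 level of -2.21 for b6955_1_32 (-0.13).

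The limma interaction passed for 10 members (Benjamini-Hochberg adjusted), or 9.09% of those kept, beside 28.2% of all probes. All 10 are dim, with median raw intensities from 96.5 to 186. Processed signals, loess, the median of the kept probes, quantiles within each dye, no array block and the replicate block each left 0 called. The last is a weak check, since its linseed numbers pair nothing. The median of all probes called members lower instead. Among the probe groups and named probes the interaction passed for b6955_2 (2.85), b6955_3_37 (3.38) and b6955_3_18 (3.08). These values are on the log2 scale and read from probes near background. The b6955_2 variants in that value and b6955_3_37 were detected in no A+LO sample. By exact permutation the interaction also passed for detected members (-7.67, adjusted p = 0.0216) and the signal share (5.78 percentage points, adjusted p = 0.0379). Detection outside the set went in the same direction as the member count, untested. A dye effect that differs between the slides cannot be told apart from these.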

How the results depend on the processing

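For the counts, shares and the set, the values that changed their sign, their side of the threshold or, for counts, by over 1.5 times are given first, with every value of a probe or probe group that changed its sign; the cause was not tested. Detected members in LO minus PO (-6.33 as reported) became 3.50 under detection at 3 background SD. Detected members in A+PO minus PO (1.67 as reported) became -37.7 under detection at 3 background SD. Detected members in the interaction (-7.67 as reported) became -25.8 under detection at 3 background SD. The signal share in LO minus PO (-0.0844 as reported) became 0.182 under background-subtracted signals, 0.169 under processed signals. The set's difference in LO minus PO (-1.003 as reported) became 0.89 under the kept-probe median. b6955_4 in LO minus PO (-0.017 as reported) became 0.027 under the all-probe median, 1.90 under the kept-probe median, 0.069 under the 75th percentile without members, 0.22 under quantiles within each dye, 0.10 under no array block and only the compared groups, 0.21 under the replicate block. b6955_1 in LO minus PO (-1.27 as reported) became 0.65 under the kept-probe median. Called members in A+LO minus A+PO (0 as reported) became 45 (42 higher, 3 lower) under no filter. Called probe groups in A+LO minus A+PO (0 as reported) became 1 lower under the all-probe median, 1 higher under the kept-probe median and no filter. The set's difference in A+LO minus A+PO (-0.022 as reported) became -2.80 under the all-probe median, 0.38 under the kept-probe median, 0.19 under the 75th percentile without members, 0.85 under no filter. b6955_2 in A+LO minus A+PO (2.05 as reported) became -2.16 under processed signals, -0.083 under loess, -0.73 under the all-probe median, -0.082 under quantiles within each dye. b6955_5_5 in A+LO minus A+PO (2.47 as reported) became -0.31 under the all-probe median. Called members in A+PO minus PO (42 as reported) became 8 lower under loess, 22 (16 higher, 6 lower) under the all-probe median, 0 under no array block. Called probe groups in A+PO minus PO (2 as reported) became 1 lower under processed signals, 1 higher under the all-probe median, 4 (1 higher, 3 lower) under quantiles within each dye, 0 under no array block. The set's difference in A+PO minus PO (-0.99 as reported) became -0.050 under loess, 0.42 under the all-probe median, 1.86 under the kept-probe median, -0.89 under the 75th percentile without members, -1.14 under no filter, -0.99 under no array block. b6955_5 in A+PO minus PO (-2.11 as reported) became 0.74 under the kept-probe median. b6955_5_8 in A+PO minus PO (-2.72 as reported) became 0.12 under the kept-probe median. Called members in A+LO minus LO (15 as reported) became 24 (11 higher, 13 lower) under background-subtracted signals, 33 (12 higher, 21 lower) under processed signals, 36 (19 higher, 17 lower) under loess, 46 lower under the all-probe median, 48 higher under the kept-probe median, 2 higher under the 75th percentile without members, 68 (11 higher, 57 lower) under quantiles within each dye, 0 under no filter, no array block, only the compared groups and the replicate block. Called probe groups in A+LO minus LO (1 as reported) became 2 (1 higher, 1 lower) under processed signals and loess, 3 lower under the all-probe median, 4 higher under the kept-probe median, 0 under the 75th percentile without members, no filter, no array block, only the compared groups and the replicate block, 5 (1 higher, 4 lower) under quantiles within each dye. The set's difference in A+LO minus LO (-0.0063 as reported) became -1.43 under the all-probe median, 1.35 under the kept-probe median, 0.22 under the 75th percentile without members, -0.999 under quantiles within each dye, 0.45 under no filter. b6955_5 in A+LO minus LO (-1.23 as reported) became 0.10 under the kept-probe median. Called members in the interaction (10 as reported) became 6 higher under background-subtracted signals, 0 under processed signals, loess, the kept-probe median, quantiles within each dye, no array block and the replicate block, 22 lower under the all-probe median, 73 higher under no filter. Called probe groups in the interaction (1 as reported) became 0 under processed signals, loess, the kept-probe median, quantiles within each dye, no array block and the replicate block, 2 higher under the 75th percentile without members. The set's difference in the interaction (0.98 as reported) became -1.85 under the all-probe median, -0.51 under the kept-probe median, -0.11 under quantiles within each dye, -0.061 under the replicate block. b6955_2 in the interaction (2.85 as reported) became -0.38 under quantiles within each dye. b6955_1 in the interaction (0.53 as reported) became -0.059 under processed signals, -0.045 under loess, -2.31 under the all-probe median, -0.98 under the kept-probe median, -0.33 under quantiles within each dye, -0.23 under the replicate block. b6955_1_32 in the interaction (-1.04 as reported) became 0.52 under the replicate block.

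For single probes and probe groups, settings of signal, scaling, filter or block also changed calls. In A+LO minus LO and the interaction, the replicate block among them holds few linseed samples, whose numbers pair nothing. In A+PO minus PO, calls were lost without a change of sign for b6955_5 in 2 of 11 settings (-2.11 to -0.71), b6955_5_10 in 3 of 11 settings (-3.05 to -0.20) and b6955_5_8 in 2 of 11 settings (-2.72 to -0.20). In A+LO minus LO, calls were lost without a change of sign for b6955_3_17 in 6 of 11 settings (-2.99 to -0.92), b6955_4 in 6 of 11 settings (0.17 to 1.82), b6955_4_1 in 5 of 11 settings (0.68 to 2.08), b6955_4_5 in 5 of 11 settings (0.70 to 2.10) and b6955_5_21 in 6 of 11 settings (-3.84 to -0.93). In the interaction, calls were lost without a change of sign for b6955_2 in 6 of 10 settings (0.030 to 2.63), b6955_3_18 in 7 of 10 settings (0.13 to 2.84) and b6955_3_37 in 7 of 10 settings (0.0025 to 3.13). In A+LO minus A+PO, calls were gained without a change of sign for b6955_1_42 in 1 of 10 settings (-2.98), b6955_2 in 2 of 10 settings (2.46 to 2.58) and b6955_5_5 in 1 of 10 settings (2.47). In A+PO minus PO, calls were gained without a change of sign for b6955_4 in 4 of 11 settings (0.59 to 3.06) and b6955_4_3 in 3 of 11 settings (1.15 to 3.12). In A+LO minus LO, calls were gained without a change of sign for b6955_5 in 4 of 11 settings (-2.65 to -0.92).

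Leaving out 1 sample or 1 array gave ranges of -15.7 to -9.09 for detected members in A+LO minus A+PO, 2.90 to 3.39 for the signal share in A+PO minus PO, 4.49 to 6.79 for the signal share in the interaction, -1.08 to 0.918 for the signal share in LO minus PO, 4.28 to 6.44 for the signal share in A+LO minus A+PO, 7.68 to 9.99 for the signal share in A+LO minus LO, -0.21 to 0.29 for b6955_4 in LO minus PO, -0.44 to 0.97 for b6955_1_32 in LO minus PO, -0.44 to 0.13 for the set's difference in A+LO minus A+PO, 1 to 2 for called probe groups in A+PO minus PO, -1.09 to -0.78 for the set's difference in A+PO minus PO, 0 to 50 for called members in A+LO minus LO, 0 to 2 for called probe groups in A+LO minus LO, -0.52 to 0.19 for the set's difference in A+LO minus LO, 0 to 18 for called members in the interaction, 1 to 3 for called probe groups in the interaction and -1.45 to 0.14 for b6955_1_32 in the interaction. With 5 arrays left the exact permutation test within arrays cannot go below p = 0.0625, so the signal shares lose their call by construction. Leaving out whole arrays, and the block, sample and array alternatives for probe groups, were added after seeing the data.

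With the replicate number as a fixed block, which pairs PO with A+PO samples on their arrays, 46 members were lower in A+PO, beside 79.6% of all probes called. They hold the 42 members called as reported and 4 more. With this block the set's difference was -0.99. For A+LO against LO, where 2 settled numbers are shared and pair nothing, 0 members were called, and the set's difference was -1.05. No paired analysis was possible for A+LO against A+PO because the groups share 1 settled number. Dim members are limited by their closeness to background: 55 of 165 were detected in fewer than 6 samples and took no part in the limma fits.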
